A study of Mus musculus with 6 samples.

Results

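Oas1c, Oas1d, Oas1e, Oas1f and Oas1h are 5 mouse paralogs of the 2-5A synthetase Oas1, some of them restricted to oocytes, and their ribosome footprints were followed through meiotic maturation. They were chosen by name, and all 5 were found among the 22416 genes of the deposited table. The footprints came from Ribo-lite, which is ribosome profiling scaled down to scarce material, with 500 oocytes in each of 6 libraries. All oocytes were wild-type (WT), from ovaries of 4-week-old female C57BL/6 mice primed with gonadotropin. WT_FGO were fully grown oocytes still arrested with a germinal vesicle, WT_MII were control oocytes matured in culture to metaphase II, and Treat_MII were treated metaphase II oocytes, with 2 libraries in each group. The labels call the last group only treated. In the study's text the agent was BYBX at 1 μM, a ligand that stabilizes RNA G-quadruplexes, and the controls received its solvent DMSO. Each library was a pool, so a level averages over oocytes, and the labels do not say whether the 2 pools of a group came from separate mice. The p-values therefore measure only the spread between pools, which was estimated in part from other genes.

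2-5A synthetases bind double-stranded RNA and then join ATP into short oligoadenylates with an unusual linkage. These oligoadenylates are messengers of the antiviral response. Humans have a single OAS1 gene, whereas the mouse gene has multiplied into a cluster. Oas1a and Oas1g encode active enzymes, Oas1b is known for flavivirus resistance and is truncated in common laboratory strains, and OAS1D, whose loss lowers fertility in mice, is an oocyte protein described as inactive and as an inhibitor of OAS1A. A fully grown oocyte no longer transcribes, so proteins made during maturation come from stored mRNA.

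The genes lie together on chromosome 5 (GRCm38, the assembly also called mm10; GENCODE release M21), where 8 Oas1 genes occupy 135 kb from 120786226 to 120921652. In map order, Oas1e spans 120786226 to 120795530 and Oas1c spans 120800194 to 120812514, both on the minus strand. Oas1f spans 120847367 to 120857986 and Oas1h spans 120861421 to 120873506, both on the plus strand. Oas1d spans 120914536 to 120921652 on the plus strand, at the far end, beyond Oas1g and Oas1a. Oas1b lies between Oas1c and Oas1f.

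**Figure D1:**
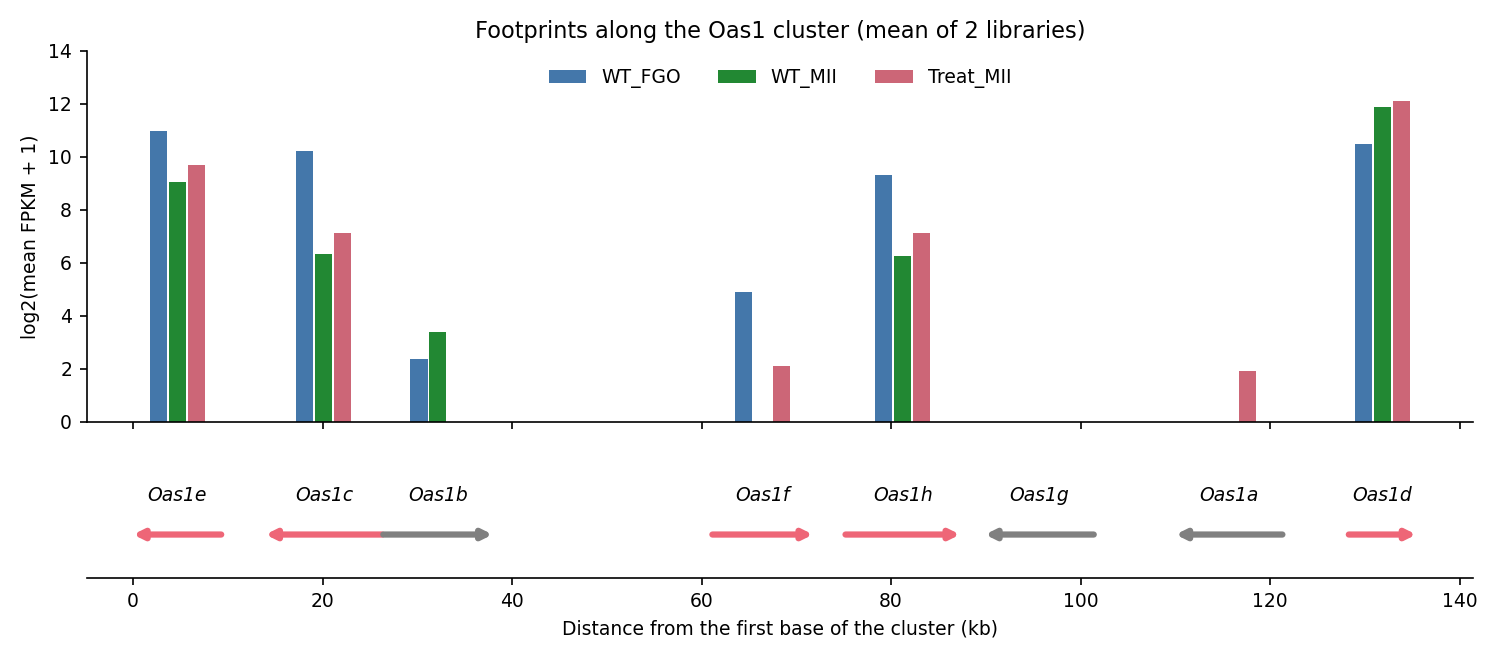
Upper panel: mean footprint level of 2 libraries per group as log2(mean FPKM + 1) for the 8 genes of the cluster, against distance in kb from its first base; lower panel: gene extents with arrows for the strand, the 5 paralogs described here in red and the others in grey. Oas1d, at the right end, is the one gene with tall bars that are higher in both metaphase II groups than in WT_FGO, and Oas1g has no bar.

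The members differ from Oas1a at the codons that an active synthetase needs. OAS enzymes hold magnesium at the active site with a triad of aspartates, which GAC and GAT encode. The coding bases around the first pair of the triad follow, with the pair's codons in capitals, since they show which paralogs keep them. They were read from the transcripts at the mm10 positions given, with Oas1a as the active reference.
Oas1c, chr5:120808174-120808230, minus strand: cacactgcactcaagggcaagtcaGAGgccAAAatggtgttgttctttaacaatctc
Oas1d, chr5:120915680-120915736, plus strand: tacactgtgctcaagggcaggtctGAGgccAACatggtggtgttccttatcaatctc
Oas1e, chr5:120794319-120794375, minus strand: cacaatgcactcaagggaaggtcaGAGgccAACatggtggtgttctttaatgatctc
Oas1f, chr5:120848187-120848243, plus strand: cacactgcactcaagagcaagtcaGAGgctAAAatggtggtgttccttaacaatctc
Oas1h, chr5:120862551-120862607, plus strand: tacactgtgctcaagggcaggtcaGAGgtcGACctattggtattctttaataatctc
Oas1a, chr5:120905810-120905866, minus strand: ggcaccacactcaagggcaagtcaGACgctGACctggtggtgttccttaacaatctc

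Oas1a had GAC at both positions. All 5 members had GAG, a glutamate codon, at the first. At the second, Oas1c and Oas1f had the lysine codon AAA, Oas1d and Oas1e had the asparagine codon AAC, and Oas1h kept GAC. The third triad position is shown in the same way.
Oas1c, chr5:120807961-120808011, minus strand: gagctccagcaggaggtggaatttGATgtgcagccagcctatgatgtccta
Oas1d, chr5:120915899-120915949, plus strand: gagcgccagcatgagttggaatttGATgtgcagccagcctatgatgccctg
Oas1e, chr5:120794106-120794156, minus strand: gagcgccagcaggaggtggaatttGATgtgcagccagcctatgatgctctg
Oas1f, chr5:120848406-120848456, plus strand: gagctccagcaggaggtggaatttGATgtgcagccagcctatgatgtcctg
Oas1h, chr5:120862770-120862820, plus strand: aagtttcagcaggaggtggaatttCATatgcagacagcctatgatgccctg
Oas1a, chr5:120905597-120905647, minus strand: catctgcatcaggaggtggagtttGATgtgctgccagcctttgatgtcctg

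Here Oas1c, Oas1d, Oas1e and Oas1f kept the GAT codon of Oas1a, and Oas1h had CAT, a histidine codon. None of the 5 thus had aspartate codons at all 3 positions, and the substitutions at the second position paired Oas1d with Oas1e and Oas1c with Oas1f. Of the full proteins, aligned with mafft, Oas1d and Oas1e were the most alike members, with 83.1% identical residues over 356 aligned and 90.9% identical coding bases. Oas1c was 75.6% identical to Oas1e over 356 aligned residues, 75.1% to Oas1f over 361 and 72.3% to Oas1d. Oas1e and Oas1f were thus about equally close to Oas1c, although only Oas1f shares its codon at the second position. Oas1h was 61.3% to 62.6% identical to the other members.

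Because a footprint is short, paralogs can share whole footprints, and the assignment of such reads is not given in the sources used here. Of the 28-base words in each coding sequence, 34.5% of those of Oas1c, 30.3% of Oas1e, 24.9% of Oas1d, 17.2% of Oas1f and 7.41% of Oas1h also occurred in another gene. In every case that gene was of the Oas family. At least 65.5% of the words of each member were its own, and the levels of Oas1c, Oas1e and Oas1d carry the most uncertainty of this kind. The longest run common to Oas1d and Oas1e, 82 coding bases at chr5:120914929-120915010 (plus strand) and chr5:120795372-120795453 (minus strand), is shown as an example of sequence in which these genes cannot be told apart. The capitals mark the 63 bases that Oas1c holds as well.
Shared run: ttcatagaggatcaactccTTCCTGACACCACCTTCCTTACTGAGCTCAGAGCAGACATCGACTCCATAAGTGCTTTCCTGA

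Levels are given as FPKM, fragments scaled by coding length and by library size, a scale on which genes can be compared. No spike-in was described, so each level is relative to its own library. The deposited FPKM fell on whole multiples of a step in each library, which gave back the reads: library constants ran from 94310 to 107252 reads in WT_FGO, 164973 to 230908 in WT_MII and 275604 to 331306 in Treat_MII. A floor of 3 reads was used for folds, and it covers counting error only.

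At the germinal vesicle stage 4 of the 5 paralogs had high footprint levels. Oas1e led, with 2239 FPKM (247 reads) in WT_FGO 1 and 1809 FPKM (227 reads) in WT_FGO 2. Oas1d followed with 1615 FPKM (165 reads) and 1266 FPKM (147 reads). Oas1c had 1357 FPKM (139 reads) and 1030 FPKM (120 reads). Oas1e ranked 45 and 48 among all genes of its library, Oas1d ranked 66 and 77, and Oas1c 78 and 90. The ranges of Oas1d and Oas1c overlapped, so their order did not exceed the spread between pools, although Oas1d was higher in both. Oas1h, which keeps the second aspartate codon, lay below them at 709 FPKM (74 reads) and 564 FPKM (67 reads). Oas1f was close to the detection limit, with 48.6 FPKM from 5 reads and 8.54 FPKM from 1 read.

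At metaphase II the order was different, with Oas1d far above the rest. Oas1d reached 3285 FPKM (587 reads) in WT_MII 1 and 4163 FPKM (1041 reads) in WT_MII 2, which made it gene 27 and gene 24 of those libraries by level. Oas1e had 637 FPKM (123 reads) and 433 FPKM (117 reads). Oas1c and Oas1h lay lower and side by side. Oas1c had 94.9 FPKM (17 reads) and 63.8 FPKM (16 reads). Oas1h had 93.1 FPKM (17 reads) and 58.7 FPKM (15 reads), a range that overlapped that of Oas1c. Oas1f had 0 reads in both libraries, against a floor of 16.7 and 11.9 FPKM.

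**Figure D2:**
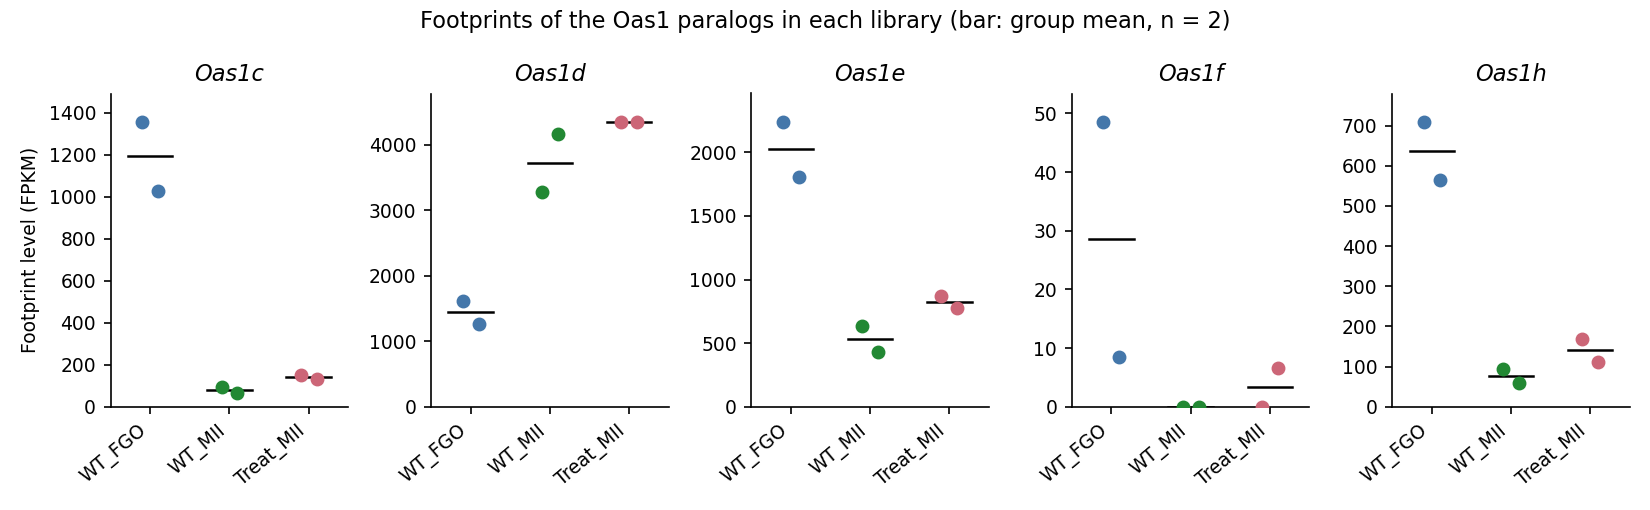
FPKM of each paralog in each of the 6 libraries (points) with the mean of each group of 2 (bars); every panel has its own linear axis from 0. Oas1d is the one panel in which both metaphase II groups lie above WT_FGO, and in the panels of Oas1c, Oas1e and Oas1h all 4 metaphase II libraries lie below both WT_FGO libraries.

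The first comparison asked how footprint levels changed during maturation, WT_MII against WT_FGO. Oas1d rose 2.59-fold, from 1441 ± 247 to 3724 ± 620 FPKM (mean ± SD, n = 2 per group). Oas1c fell 15.0-fold, from 1194 ± 231 to 79.3 ± 22.0 FPKM, Oas1h fell 8.39-fold, from 637 ± 102 to 75.9 ± 24.3 FPKM, and Oas1e fell 3.78-fold, from 2024 ± 304 to 535 ± 144 FPKM. Each of these genes changed more than 2-fold, with both libraries of one group beyond both of the other. Of all genes that averaged 1 FPKM or more, 13.6% did so upward and 22.3% downward.

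In the limma fit of log2(FPKM + 1) over all 15127 genes that averaged 1 FPKM or more, Oas1d differed by 1.37 ± 0.20 (log2 difference ± SE, adjusted p = 0.0175). The differences of the genes that fell were -3.91 ± 0.34 for Oas1c (adjusted p = 0.0035), -3.08 ± 0.40 for Oas1h (adjusted p = 0.0118) and -1.94 ± 0.27 for Oas1e (adjusted p = 0.0146). The median over all tested genes was -0.44, and relative to it the falls were smaller and the rise of Oas1d larger. Thus 1 of 5 members was called higher, where 3.67% of all tested genes were, and 3 of 5 were called lower, where 3.09% of all were. Oas1f, with 6 reads in WT_FGO and 0 in WT_MII, was at least 2.00-fold lower against the floor and did not pass the test (adjusted p = 0.129); it entered the test only through its WT_FGO reads. With precision weights on the recovered reads it was called too (log2 difference -3.43, limma, adjusted p = 0.0078), which made 5 of 5. That setting called 797 genes higher and 1572 lower of 14538, against 555 and 468 of 15127 in the main fit.

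**Figure D3:**
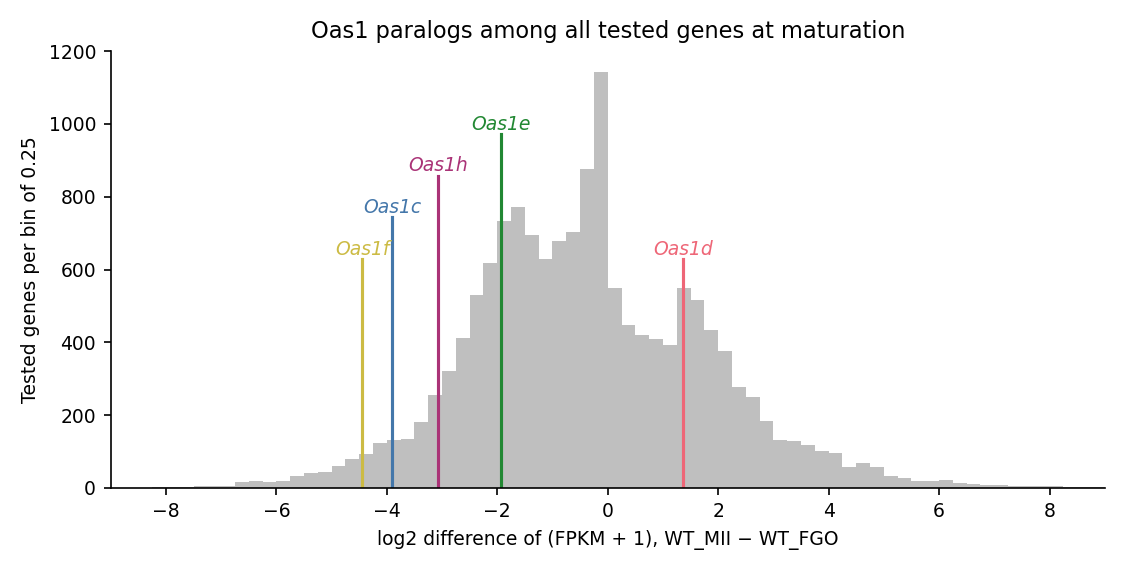
Grey bars: number of tested genes in each bin of 0.25 of the log2 difference of (FPKM + 1), WT_MII minus WT_FGO; coloured lines: the 5 paralogs at their own differences. Oas1c at -3.91 and Oas1f at -4.44 lie in the lower tail, with 603 and 369 genes below them, and Oas1d at 1.37 lies on the other side of 0, with 3286 genes above it.

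The called members differed in their place among all tested genes. Oas1c was near the lower end, with 603 genes of 15127 below it, and Oas1h had 1176 below it. Oas1e had 3316 genes below it and Oas1d 3286 above it, so neither was extreme in size. By the simpler rule of a 2-fold ratio with both libraries beyond both, 1 member was higher and 4 were lower, and the same rule took 13.6% of all tested genes as higher and 22.3% as lower. The ratio was of mean FPKM + 1, by which Oas1f was among the 4; its bound against the floor, given above, is not past 2-fold.

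The calls rested on the spread that all 3 groups shared and on the mean-variance trend. By that trend the spread of a gene is drawn toward that of genes at similar levels. In the fit without it the SE of Oas1d was 0.62 in place of 0.20, and that of Oas1c was 0.64 in place of 0.34. With WT_FGO 1, WT_FGO 2 or WT_MII 2 left out, 1 of 5 members was still called, Oas1c, and with WT_MII 1 left out 3 were, Oas1c, Oas1e and Oas1h; the call of Oas1d was lost each time, with adjusted p from 0.0505 to 0.118 and log2 differences from 1.19 to 1.55. With only the compared groups in the fit none was called, as in the fit without a mean-variance trend, without the filter on low values Oas1c and Oas1h were called, and with each library centred on the median gene Oas1e lost its call (log2 difference -1.47, adjusted p = 0.0649).

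Ratios within a library do not depend on how libraries are scaled, and they showed the change in make-up directly. The ratio of Oas1d to Oas1e FPKM was 0.722 and 0.700 in WT_FGO, and 5.16 and 9.61 in WT_MII. The ratio of Oas1d to Oas1c was 1.19 and 1.23 in WT_FGO, and 34.6 and 65.2 in WT_MII. In the closest pair by sequence, then, the lesser member at the germinal vesicle stage was the greater at metaphase II in every library.

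The members that fell did not fall by the same factor. The ratio of Oas1e to Oas1c was 1.65 and 1.76 in WT_FGO and 6.72 and 6.79 in WT_MII, without overlap. The ratio of Oas1h to Oas1c moved less, from 0.522 and 0.548 to 0.981 and 0.920.

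The sum over the 5 genes did not pass the test, although 4 of its parts did. It was 5323 ± 913 FPKM in WT_FGO and 4415 ± 430 FPKM in WT_MII, a log2 difference of -0.26 ± 0.17 (limma, adjusted p = 0.481), and the ranges of the groups overlapped. Centred on the median gene, the sign of this difference turned to 0.20, and with quantile normalization it was -0.68 (adjusted p = 0.0209). Oas1d made up 27.1% of the sum in both WT_FGO libraries, and 79.9% and 88.2% in WT_MII. Oas1e went from 37.5% and 38.7% to 15.5% and 9.18%, and Oas1c from 22.7% and 22.0% to 2.31% and 1.35%.

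**Figure D4:**
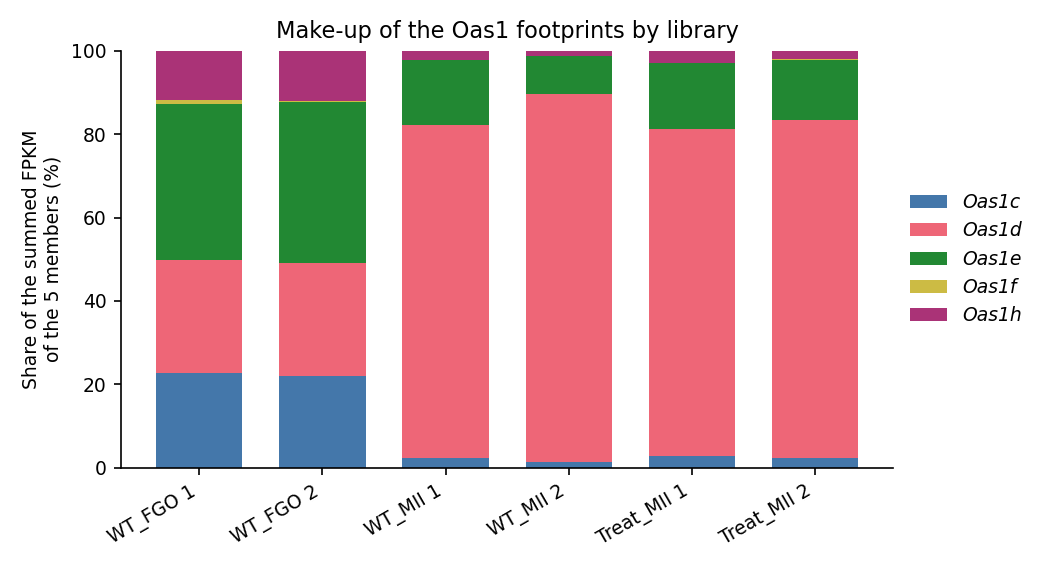
Share of each paralog in the summed FPKM of the 5, in percent, for each library. The segment of Oas1d grows from 27.1% in both WT_FGO libraries to between 78.4% and 88.2% in the 4 metaphase II libraries.

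The second comparison asked whether the treatment altered these levels, Treat_MII against WT_MII. Oas1d had 4345 FPKM (1559 reads) and 4349 FPKM (1298 reads) in the treated libraries, 1.17 times its control mean. Oas1e had 875 FPKM (339 reads) and 778 FPKM (251 reads), 1.54 times the control. For both genes the treated libraries were above the controls without overlap.

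Oas1c and Oas1h, the paralogs that fell most among those with enough reads, were also higher in the treated libraries. Oas1c had 150 FPKM (54 reads) and 130 FPKM (39 reads), 1.77 times the control. Oas1h had 169 FPKM (62 reads) and 111 FPKM (34 reads), 1.85 times the control. Oas1f had 0 and 2 reads, at the floor in both groups.

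None of these differences passed the test. The limma log2 differences were 0.84 ± 0.34 for Oas1c (95% interval -0.00 to 1.68), 0.88 ± 0.40 for Oas1h (-0.09 to 1.86), 0.65 ± 0.27 for Oas1e (-0.00 to 1.30) and 0.23 ± 0.20 for Oas1d (-0.26 to 0.73), and the lowest adjusted p was 0.848. The intervals leave room for no change and for a rise of more than 2-fold in Oas1c, Oas1h and Oas1e. No gene of the 15127 was called in either direction (0% higher and 0% lower), 882 had an unadjusted p under 0.05, and with precision weights on the recovered reads 161 genes were called, none of them a member.

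The treated libraries were above the controls without overlap for 4 of 5 members and for 16.2% of all tested genes. None of the 5 passed the 2-fold rule, which took 10.7% of all genes as higher and 9.55% as lower; without WT_MII 1 it took 2 members, Oas1c and Oas1h, as higher. With quantile normalization the difference of Oas1d was -9.95e-05 ± 0.155, so whether it was higher at all depended on the scaling. Within libraries, the ratio of Oas1d to Oas1e was 4.97 and 5.59 after treatment, against 5.16 and 9.61 in the controls, and Oas1d made up 78.4% and 80.9% of the sum. The sum itself was 5457 ± 115 FPKM in Treat_MII (log2 difference 0.31 ± 0.17, limma, adjusted p = 0.931).

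The last comparison set the treated oocytes against the starting stage, Treat_MII against WT_FGO, and shares libraries with the others. Oas1d was 3.02-fold higher (log2 difference 1.60 ± 0.20, limma, adjusted p = 0.0133). Oas1c was 8.51-fold lower (-3.07 ± 0.34, adjusted p = 0.00908) and Oas1h 4.54-fold lower (-2.20 ± 0.40, adjusted p = 0.0432). For Oas1e the ratio was 2.45-fold lower without a call (-1.29 ± 0.27, adjusted p = 0.0636). Both Oas1h and Oas1e lay near the threshold. Oas1h lost its call with a pseudocount of 0.1 (adjusted p = 0.0553) and with centring (adjusted p = 0.0946). Oas1e was called with a filter at a mean of 5 FPKM (adjusted p = 0.0428), with quantile normalization (adjusted p = 0.0244) and with precision weights (adjusted p = 1.24e-08). Oas1f was at least 3.13-fold lower against the floor (adjusted p = 0.315).

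Of the 5 members 1 was called higher, beside 2.86% of all tested genes, and 2 were called lower, beside 1% of all. By the 2-fold rule 1 was higher and 4 were lower, beside 14.5% and 24.7% of all genes. No member was called without Treat_MII 1 or without Treat_MII 2, only Oas1c was called without WT_FGO 2, and Oas1c and Oas1d were without WT_FGO 1.

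**Figure D5:**
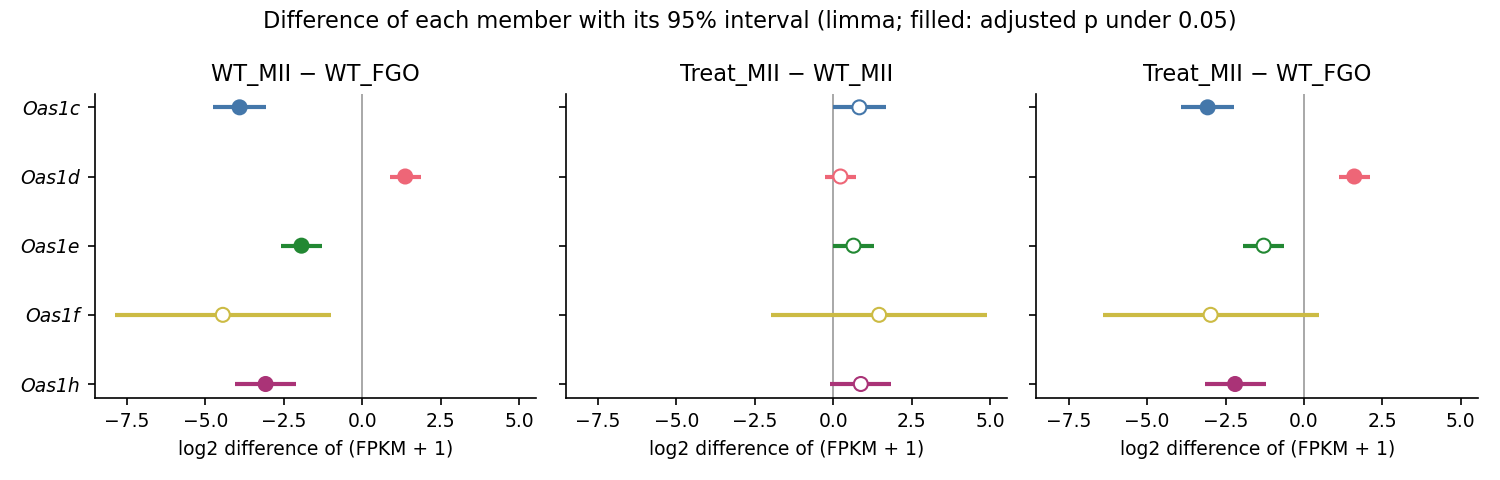
Log2 difference of (FPKM + 1) of each paralog in the 3 comparisons, with its 95% interval from the limma fit; filled points had an adjusted p under 0.05. Oas1d stands right of 0 in the outer panels with Oas1c, Oas1e and Oas1h left of it, and no point is filled in the middle panel.

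The transcripts of the 5 genes were examined for features outside the rule. In the annotated transcripts, the leader before the start codon had 362 bases in Oas1c and 348 in Oas1d, with 8 and 7 upstream ATG, and 25 to 33 bases with no ATG in Oas1e, Oas1f and Oas1h. The members with a long leader were thus 1 that fell and 1 that rose. An upstream ATG occurred in 53.1% of 19075 coding transcripts, one per gene, each with at least 100 bases after the stop codon.

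Sequence that the ligand or the maturation machinery could read was also sought, on the transcript strand. A run of 4 GGG separated by 1 to 7 bases, the usual search pattern for a G-quadruplex, was found in none of the 5 transcripts and in 18.5% of all. The looser pattern of 4 GG runs was found in all 5, with 2 to 8 matches, and in 93.8% of all. The cytoplasmic polyadenylation elements TTTTAT and TTTTAAT, which recruit CPEB to stored mRNAs, were absent from the stretch after the stop codon in all 5. Of the 19075 transcripts 57.4% had at least 1 in that stretch, and 17.8% had at least 1 in its last 100 bases. The stretch had 360 to 840 bases in the members, and the shares were not matched for length. These are matches of letters in annotated transcripts, whose ends may differ in oocytes.

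Most other members of the family had few reads assigned to them in these cells. Oas1g had 0 reads in all 6 libraries, Oas1a had 2 reads in a single library, and Oas1b had at most 5 reads. Oas1a and Oas1g had 96.7% identical coding bases and a common run of 231 bases. How reads that fit both were assigned is not given, so their low levels are uncertain, and this was not tested. Oas2 was highest among these other family members, with 5 to 34 reads per library and up to 63.2 FPKM, followed by Oasl2 with up to 4 reads and Oas3 with up to 6. That highest level of Oas2, in WT_MII 2, was close to those of Oas1c (63.8 FPKM) and Oas1h (58.7 FPKM) there. In every other library Oas2 lay below both, as in WT_MII 1, where it had 28.6 FPKM. Of 7 such genes, 5 averaged 1 FPKM or more and none was called in the maturation or treatment comparison. The median log2 difference of these 5 at maturation was -0.70, beside -0.44 for all genes. It was the value of Oasl1, which had 0 to 2 reads per library, too few to set against the paralogs described here.

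Other genes listed for the pathway were also low. Akap7, which encodes an anchoring protein of protein kinase A, had 1 to 15 reads per library, Cnp, which encodes a cyclic nucleotide phosphodiesterase, had 0 to 6, and Abce1, which encodes a ribosome recycling factor, had 0 to 5. All 3 were tested and none was called in any comparison.

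Nucleic acid sensors held a single called gene. Cgas, the cytosolic DNA sensor, had 0 reads in both WT_FGO libraries, 9 and 20 in WT_MII, and 33 and 39 in Treat_MII. Its log2 difference at maturation was 5.49 ± 0.66 (limma, adjusted p = 0.00919), a value that depends on the pseudocount because WT_FGO was at 0. With WT_FGO under the floor its fold would be a bound, which was not computed. Cgas entered the test only through its metaphase II reads. It was the 1 gene called of 8 tested in this list, with Mavs and Adar, the next highest, at 1 to 4 and 1 to 13 reads. Of 19 interferon signalling and induced genes, 15 were tested and none was called at maturation or under treatment; Bst2, Irf1 and Jak1 were the highest, with 5 to 14, 2 to 18 and 3 to 38 reads. Of the 6 genes listed as flanking the cluster all were tested and none was called, with Oas2, Ptpn11 and Dtx1 the highest at means of 32.1, 31.5 and 6.54 FPKM.

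All 19 oocyte markers had footprints, and at maturation 3 of them, Mos, Oosp1 and H1f8, were called higher and 13 were called lower, among them Zp3 by -3.53 and Ooep by -3.59 on the log2 scale, where 3.67% and 3.09% of all tested genes were. The median difference of the list was -2.53 at maturation, against -0.44 for all tested genes. Under treatment none was called, and the median was 1.102, against 0 for all. The 15 granulosa or cumulus markers summed to 872 and 1851 FPKM in WT_FGO, 2256 and 424 in WT_MII, and 329 and 360 in Treat_MII, with Tnfaip6 at 0 throughout. Hsd17b1, a steroidogenic enzyme, was the highest of the list in 5 libraries, with 1956 and 256 FPKM in WT_MII. In WT_FGO 2 Inha was the highest, and that library stood apart from WT_FGO 1. Inha, an inhibin subunit gene, had 88 reads in WT_FGO 2 against 3 in WT_FGO 1, Amh had 35 against 9, Inhba 19 against 0, Fst 16 against 1 and Cyp11a1 12 against 0. The summed ranges overlapped between WT_FGO and WT_MII, the sum was lower in both treated libraries than in both controls, and none of 12 tested was called in any comparison. All 5 paralogs were lower in WT_FGO 2 than in WT_FGO 1, and the part of this list in any member's values was not tested. The 7 blood and immune markers summed to 95.6 and 99.3 FPKM in WT_FGO and 5.30 to 20.8 FPKM in the 4 metaphase II libraries, and 1 of 4 tested was called lower at maturation, the haemoglobin gene Hba-a1. It had 1 and 2 reads in WT_FGO and 0 elsewhere, which is under the floor, and entered the test only through WT_FGO. Ptprc had the most reads of this list, 9 in WT_FGO 1, and C1qa and Cd68 had at most 4 and 3 in a library. The part of this list in the maturation values was not tested.

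Genes with the most similar profile were looked up over the 6 libraries, a search chosen after values were seen. By Pearson's r of log2(FPKM + 1) among 6353 genes that averaged 10 FPKM or more, the nearest to Oas1d were Cetn3, a centrin, Sap30, a subunit of a histone deacetylase complex, and Ddx3x, an RNA helicase, with r of 0.995 to 0.999. The nearest to Oas1c were Tubb2a, Mtmr14 and Psmb2, which encode a tubulin, a phosphoinositide phosphatase and a proteasome subunit, with r of 0.995 to 0.997. Such values were common with 3 groups of 2, since 398 genes had r of at least 0.95 with Oas1d and 246 with Oas1c.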

How the data were processed

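Ribo-lite libraries of mouse oocytes were analysed as deposited. The authors supplied FPKM per gene and library, made from reads placed on mm10; the submitters' processing notes name cutadapt 1.14, Bowtie2 2.2.2 and STAR 2.5.3a. The counting program, the annotation and the handling of reads that fit several genes or carry molecular identifiers are not given in the sources used here. Footprints alone were used, so mRNA amount and translation cannot be told apart, nor fewer translating oocytes from fewer footprints per oocyte. RNA-seq of the study was not analysed here.

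After 26 entries with a repeated name were left out, 22416 genes remained. FPKM times the union coding length in kb (GENCODE M21), divided by the FPKM of 1 read in 1 kb (3.02 to 10.6 by library), gave whole reads within 0.02 for 96.4% of genes and all 5 members. Groups came from the sample titles. log2(FPKM + 1) of genes that averaged 1 FPKM or more was fitted in limma 3.58.1 (R 4.3.3; lmFit and eBayes with trend, all 6 libraries, 3 groups), two-sided, with Benjamini-Hochberg adjustment over 15127 genes and a threshold of 0.05. The voom weights of limma were an alternative on recovered reads. Fits were also run on simulated counts with the same dispersion for every gene, and no result here rests on that check. Folds are ratios of group mean FPKM, and against a group at or under 3 reads per library they are bounds.

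Coding sequences and positions were taken from a single GENCODE M21 transcript per gene, which for Oas1e has 1068 coding bases where the union has 1170. Proteins were aligned with mafft 7.526. The text names all members, and of each list other than the cell type markers the genes called and the 3 highest. One listed gene is not reported here. Members and lists were chosen with earlier results of these data known.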

Additional observations from a re-analysis of the deposited data

How the results depend on the processing

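The directions of the members called at maturation were the same in all 13 alternative settings each, with log2 differences from 1.19 to 1.83 for Oas1d, -4.19 to -3.44 for Oas1c, -3.41 to -2.62 for Oas1h and -2.21 to -1.47 for Oas1e, but the calls were not. Of the 5 members 4 were called at maturation, 3 with centring, 2 without the filter on low values, 0 with only the groups compared in the fit, 0 without the mean-variance trend, 5 with precision weights, and 1 to 3 when a library was left out. For treated against fully grown oocytes 3 were called, 2 with a pseudocount of 0.1 or with centring, 4 with a filter at 5 FPKM, quantile normalization or precision weights, 1 without the filter, 0 with only the groups compared, 0 without the trend, and 0 to 2 when a library was left out. For treatment 0 were called in every setting, and the 2-fold count of 0 became 0 to 2 when a library was left out. The fit with only the compared groups and those without a library have fewer samples; for the other settings the cause was not tested. Where a group was left with 1 library, that library was assumed to vary like the other groups. Replicate numbers were not taken as pairs, since same-numbered libraries deviated with correlations of -0.0144, 0.00361 and -0.00972 (6520 genes); a replicate block left 4, 0 and 3 members called. Precision weights called 2369 genes at maturation in place of 1023, and 2826 in place of 585 for treated against fully grown; 161 in place of 0 for treatment. In place of 1023 genes called at maturation, 328 were without the trend, 536 without the filter and 0 with only the groups compared; in place of 585 for treated against fully grown, 59 were without the trend and 32 with only the groups compared; 27 in place of 0 were called under treatment without the filter. When a library was left out, 826 to 1843, 363 to 418 and 466 to 1604 genes were called at maturation, under treatment and for treated against fully grown. The direction of these calls under treatment went with the group that was left with 1 library, whichever of its libraries was left out. Most genes called were lower without WT_MII 1 or WT_MII 2, and all were higher without Treat_MII 1 or Treat_MII 2. Centring gave 758 higher and 305 lower genes at maturation where the deposited scale gave 555 and 468, and 594 and 65 in place of 433 and 152 for treated against fully grown. The difference of Oas1d under treatment went from 0.23 to -9.95e-05, which is no difference (quantile normalization). The summed members turned from -0.26 to 0.20 at maturation (centred), and from 0.05 to -0.52 (quantile normalization) for treated against fully grown, where leaving out a library gave -0.13 (without WT_FGO 2) to 0.22. With words of 24 bases the shared part was 38.5% for Oas1c, 29.8% for Oas1d, 34.4% for Oas1e, 22.0% for Oas1f and 9.96% for Oas1h, and with words of 32 bases it was 30.3%, 20.5%, 25.8%, 13.3% and 5.11%. Depth limits Oas1f, which had at most 5 reads in a library, and the metaphase II values of Oas1c and Oas1h, with 15 to 17 reads in the controls.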
